A study of Homo sapiens with 32 samples.

Results

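SP1 and YY1 are zinc finger transcription factors found at many human promoters. The promoters described here held summits of both and no summit of ZNF143 or NRF1, the other factors mapped in the study. A summit is the position of highest signal within a peak of chromatin immunoprecipitation followed by sequencing (ChIP-seq), in which DNA crosslinked to a protein is recovered with an antibody and sequenced. Promoter windows ran from 500 bp upstream to 500 bp downstream of each protein-coding 5′ end in GENCODE 44, on chromosomes 1 to 22 and X, and overlapping windows were merged. Members were chosen by the presence of at least 1 SP1 and 1 YY1 summit and the absence of NRF1 and ZNF143 summits in the window. The rule kept 1375 of 18170 windows (7.57%, Wilson 95% interval 7.19 to 7.96). They held the 5′ ends of 1452 of 19970 genes (7.27%), or 12.9% of the 11219 genes whose window held both SP1 and YY1. A single 5′ end was present in 1301 member windows.

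The cells were HEK293T, an established human embryonic kidney line, of 1 clone named HEK_CloneZD29. In every sample, controls included, ZNF143 carried an inducible dTAG degron, a domain that lets a small molecule send the fused protein to the proteasome. Cells were untreated or given 50 nM dTAGV-1 (written 50nm in the labels) for 30 minutes before fixation. The 32 samples fell into 10 groups: untreated and treated cells for SP1, NRF1 and YY1 with 4 samples in each group, and for ZNF143, recovered through its HA tag, and a mock precipitation with 2 in each. The deposited lists, 1 per antibody, gave no value per sample or treatment, so treated and untreated cells were not compared and no replicate spread could be given. Sequencing depth was unknown, and the mock samples were not analysed here. Whether the treatment of the samples moved any result below was not tested.

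SP1 binds GC boxes and is associated with CpG-rich promoters without a TATA box. YY1 can activate or repress, and at promoters its ATGGCG-type sites are known to lie mostly just downstream of the transcription start. NRF1 binds a palindromic GC-rich site at many housekeeping and mitochondrial genes, and ZNF143 binds a long site at messenger RNA and small nuclear RNA promoters.

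Exact copies of a consensus lay under a minority of these summits. In 1187 members (86.3%) neither the SP1 nor the YY1 consensus lay within 50 bp of that factor's highest summit. The YY1 consensus searched was AANATGGCG and the SP1 consensus was GGGGCGGGG, on both strands with 0 mismatches. The first 8 members by mean SP1 and YY1 place whose highest YY1 summit lay within 50 bp of a YY1 consensus are shown because they are the highest-ranked members with a recognisable YY1 sequence. Each is 30 bases of hg38, 5′ to 3′ on the strand of the consensus, which is in capitals.
HOXA3, chr7:27152760-27152789, minus strand: cctcggtggtAAGATGGCGccggtgtaaga
PEPD, chr19:33521744-33521773, minus strand: gtgccgggcgAACATGGCGgcggccaccgg
PIP4K2B, chr17:38799906-38799935, plus strand: cccgaatgccAAGATGGCGgcgatgccacc
ATL2, chr2:38377244-38377273, minus strand: aaatcggtacAAGATGGCGgagggggacga
PFDN4, chr20:54208088-54208117, plus strand: gtccagtcccAAGATGGCGgccaccatgaa
HOXB3/HOXB6, chr17:48605164-48605193, minus strand: agaagaaaagAAGATGGCGactgagaaaag
NPM1, chr5:171387479-171387508, minus strand: cccaccctgcAAAATGGCGtcggcagccct
DDX6, chr11:118791249-118791278, plus strand: tcctccactcAAGATGGCGaaacctcggcc

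In HOXA3, which encodes a homeobox factor, the centre of the consensus lay 1 bp from the YY1 summit. In the window of PEPD, which encodes the dipeptidase prolidase, it lay 30 bp from the summit. The consensus was on the gene's own strand in HOXA3, PEPD, ATL2, PFDN4 and HOXB3/HOXB6, and on the opposite strand in PIP4K2B, NPM1 and DDX6. Its centre lay upstream of the 5′ end in HOXA3, HOXB3/HOXB6 and DDX6 and downstream of it in the other 5 windows.

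The SP1 consensus is shown in the same way for the first 4 members with a copy within 50 bp of the highest SP1 summit.
PEPD, chr19:33521816-33521845, plus strand: gccaatgcatGGGGCGGGGtaagggcgggg
NBPF10/NOTCH2NLA, chr1:146229066-146229095, minus strand: cggcgacagtGGGGCGGGGcttgcggtggg
SLC25A5, chrX:119468353-119468382, minus strand: aggcggggccGGGGCGGGGtctgggccccg
UNC13A, chr19:17688407-17688436, plus strand: gacgcctgatGGGGCGGGGgcgctgcgggc

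All 4 SP1 copies were centred upstream of the 5′ end, at offsets from -56 to -7 bp, and only the NBPF10/NOTCH2NLA copy was on the gene's strand. SLC25A5 encodes an ADP/ATP carrier of mitochondria and UNC13A a protein that primes synaptic vesicles. NBPF10 and NOTCH2NLA lie in near-identical copies on chromosome 1, so the assignment of reads to that window is uncertain.

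Members were ranked by the mean of the places that their highest SP1 and YY1 summits took in their own lists, where the top 1% is the strongest. Scores are the authors' −log10 p-values or q-values, which of the pair is not stated, and are comparable only within a list. HOXA3 (window chr7:27152083-27153083) came first, with an SP1 score of 715 (top 3.01% of the SP1 list) and a YY1 score of 1015 (top 1.71%). Both summits lay upstream of its annotated 5′ end, SP1 at -89 and YY1 at -191 bp. That end is the outermost annotated start of a gene with several promoters.

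PEPD (chr19:33521323-33522323) came second, with an SP1 score of 454 at 36 bp and a YY1 score of 4359 at 94 bp, the third highest YY1 score of any member. WASF2 (chr1:27489667-27490667), which encodes an activator of actin assembly, had SP1 at -64 bp (score 558) and YY1 at 37 bp (score 1240). In YWHAQ (chr2:9630497-9631497), which encodes a 14-3-3 protein, the SP1 score was 1597 at -74 bp and the YY1 score 278 at 95 bp. SP1 upstream and YY1 downstream of the 5′ end was thus the layout in WASF2 and YWHAQ, and not in HOXA3 or PEPD.

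BMI1 (chr10:22320599-22321599), a Polycomb gene, had its highest SP1 summit at -31 bp (score 528) and its highest YY1 summit at 460 bp (score 681). TOP2B (chr3:25664409-25665409), which encodes DNA topoisomerase II beta, was like it, with SP1 at -97 bp (score 914) and YY1 at 434 bp (score 255). In both windows a lower summit lay nearer, and the closest SP1 and YY1 summits were 7 and 6 bp apart. FOXC1 (chr6:1609415-1610415), a forkhead factor gene, had SP1 at 15 bp (score 715) and YY1 at 75 bp (score 335).

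STMN3/RTEL1 (chr20:63657182-63658310) is a window shared by a stathmin family gene and a telomere helicase gene on opposite strands. Its SP1 score was 531 and its YY1 score 510, 5 bp apart near the edge of the window, 494 and 489 bp from the nearest 5′ end. PIP4K2B (chr17:38799626-38800626), a phosphoinositide kinase gene, had an SP1 score of 393 and a YY1 score of 978, both in an intron. TAF15 (chr17:35808982-35809982), which encodes an RNA-binding protein of the FET family, completed the first 10 with an SP1 score of 390 and a YY1 score of 898, 296 bp apart. These 10 windows thus ranged from summits nearly on top of each other to summits well apart.

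The windows strongest for a single factor were other ones. SPATC1L (chr21:46183976-46184976) had the highest SP1 score of any member, 4784 (top 0.101%), beside a YY1 score of 13.2 (top 53.6%). SYT7, which encodes a calcium sensor of vesicle fusion, had 2387 for SP1 and 92.5 for YY1, and AP2A1, a clathrin adaptor gene, had 2143 and 19.6. SEC16B (chr1:177983803-177984803), whose product acts at endoplasmic reticulum exit sites, had the highest YY1 score, 5602 (top 0.210%), beside an SP1 score of 59.1 (top 24.2%). NUDC/GPATCH3 followed with a YY1 score of 4505 and an SP1 score of 119. Neither SEC16B nor SPATC1L was CpG-rich, with observed over expected CpG ratios of 0.131 and 0.319.

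At the other end of the ranking, both summits were near the lowest score that the lists hold. TLR1/TLR6, genes of innate immune receptors, came last with an SP1 score of 2.05 and a YY1 score of 2.89. ANGPTL5 had 2.32 and 2.63, and EFEMP1 had 2.35 and 2.41. All SP1 summits of a member scored under 5 in 88 windows, and all YY1 summits in 125.

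**Figure D1:**
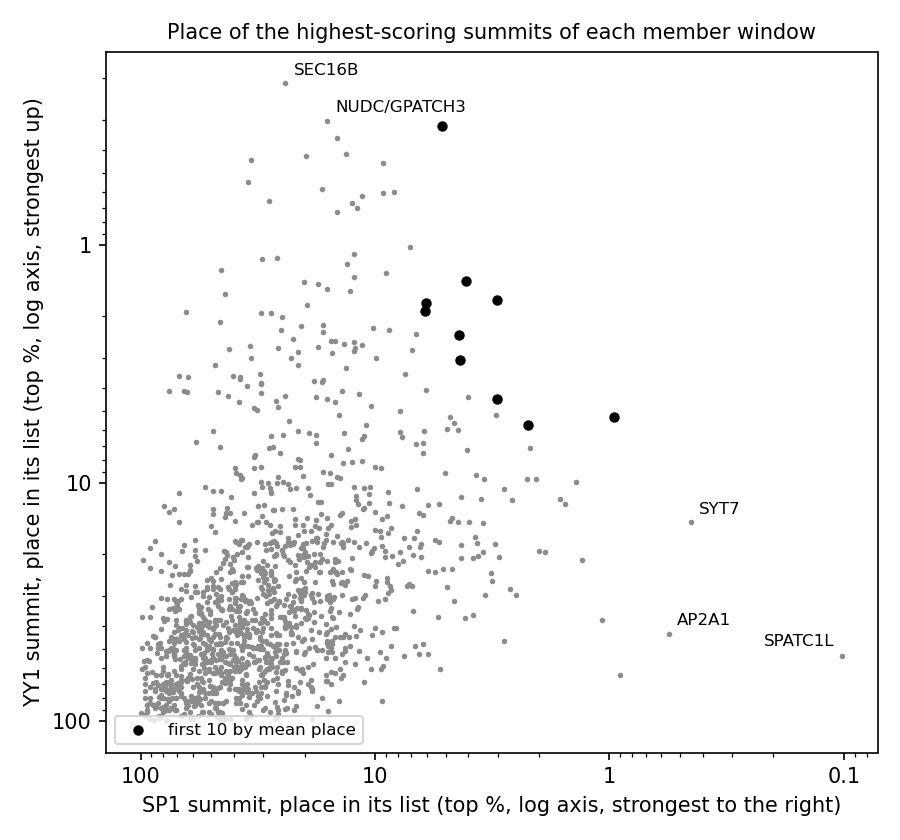
Each point is 1 member window, placed by the top percent of its highest SP1 summit in the SP1 list (x axis, log scale, strongest to the right) and of its highest YY1 summit in the YY1 list (y axis, log scale, strongest up). Black points are the first 10 members by mean place, and the windows highest for a single factor, such as SPATC1L and SEC16B, lie far from them along 1 axis.

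The values in the next 3 paragraphs come from the lists that chose the members and are given as a description, with no test. Over all 1375 members, the median highest SP1 score was 36.6 (quartiles 13.5 and 100.7) and the median highest YY1 score 25.5 (11.7 and 66.8). In the 3159 windows with SP1, YY1 and NRF1 but no ZNF143 (below, NRF1 windows) the medians were 139.6 and 75.7. In the 367 windows with SP1, YY1 and ZNF143 but no NRF1 (below, ZNF143 windows) they were 138.5 and 131.6. Member summits therefore sat lower in their own lists, at a median of the top 31.2% for SP1 and 36.5% for YY1, against 14.4% and 17.2% in NRF1 windows. The SP1 summit was in the highest 10% of its list in 10.7% of members, 32.9% of NRF1 windows and 33.5% of ZNF143 windows. For YY1 these shares were 12.5%, 28.4% and 47.4%.

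SP1 and YY1 took different positions around the 5′ end of member genes. The highest SP1 summit lay upstream of the nearest 5′ end in 59.5% of members (56.9 to 62.1), with a median offset of -29 bp. The highest YY1 summit lay upstream in 38.0% (35.5 to 40.6), with a median of 75 bp, which is downstream. Along the gene, YY1 lay downstream of SP1 in 832 members (60.5%). SP1 summits were intergenic in 51.4% of members, in untranslated regions in 22.2%, in introns in 21.6% and in coding sequence in 4.80%. YY1 summits were intergenic in 31.9%, in untranslated regions in 32.5%, in introns in 24.9% and in coding sequence in 10.7%. Offsets in NRF1 windows had medians of -41 bp for SP1 and 93 bp for YY1, and in ZNF143 windows of -16 and 55 bp.

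**Figure D2:**
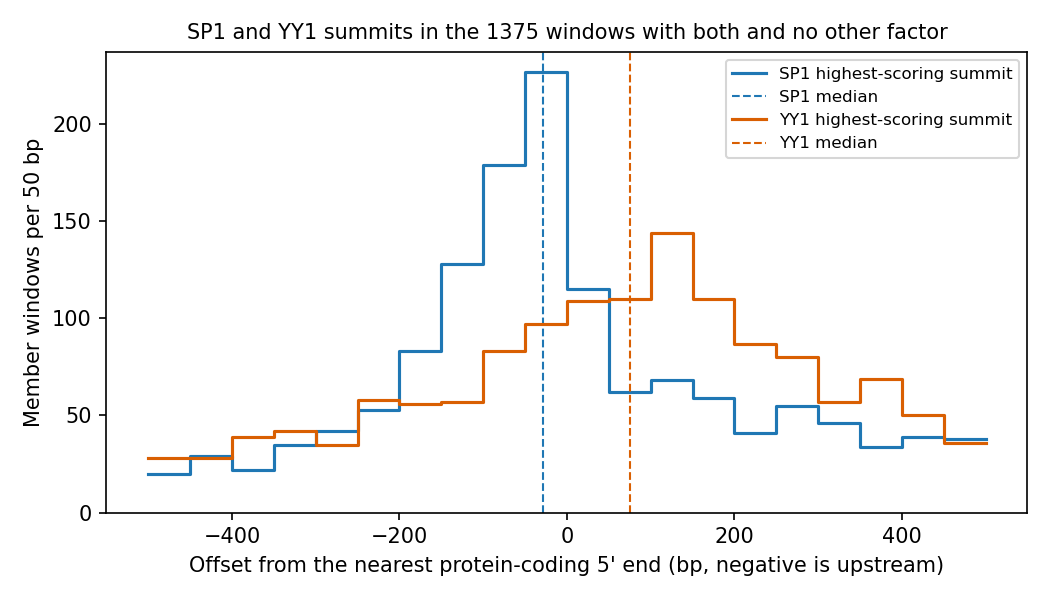
The lines count member windows by the offset of the highest SP1 summit (blue) and YY1 summit (orange) from the nearest protein-coding 5′ end, in bins of 50 bp, with negative values upstream. The SP1 counts peak just upstream of the 5′ end, with the median (dashed) at -29 bp, and the YY1 counts are broader, with the median at 75 bp.

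The closest SP1 and YY1 summits of a member were a median of 58 bp apart (quartiles 24 and 120). They were within 50 bp in 634 members (46.1%, 43.5 to 48.8), against 33.3% (31.7 to 35.0) of NRF1 windows and 45.5% (40.5 to 50.6) of ZNF143 windows. Within 250 bp the 3 shares were 92.1%, 92.8% and 94.3%. Most members held 1 SP1 summit (76.1%) and 1 YY1 summit (67.2%). In DDX6, which encodes an RNA helicase of P-bodies, the highest SP1 and YY1 summits fell on the same base.

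**Figure D3:**
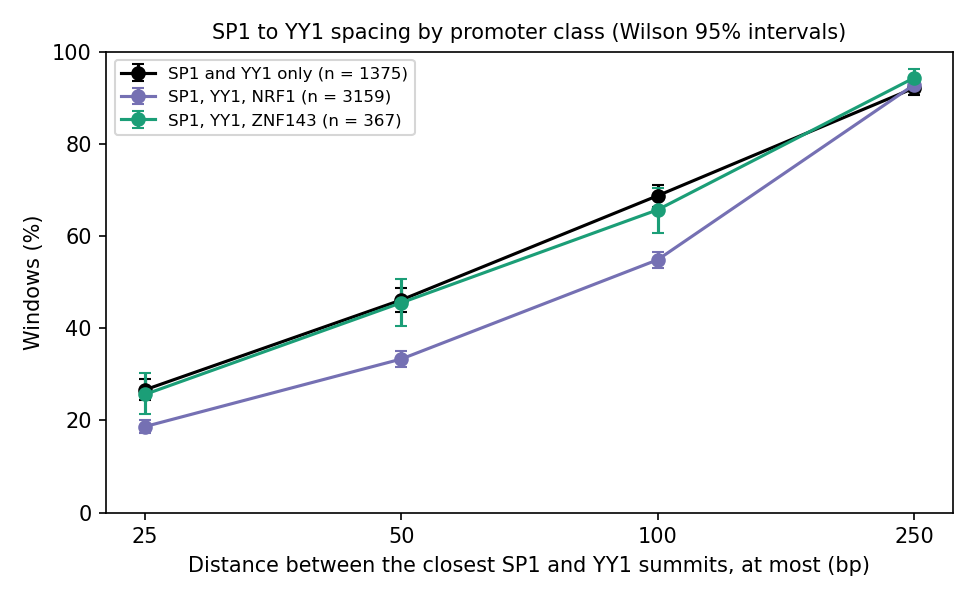
Points give the percent of windows whose closest SP1 and YY1 summits were at most 25, 50, 100 or 250 bp apart (x axis), with Wilson 95% intervals, for members (black), NRF1 windows (purple) and ZNF143 windows (green). At 50 bp the members stand at 46.1% and NRF1 windows at 33.3%, and at 250 bp the 3 classes lie between 92.1% and 94.3%.

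Some windows were near the edge of the rule. The nearest NRF1 summit lay no more than 50 bp beyond the window in 50 members, and the nearest ZNF143 summit in 12. Just inside, in the outermost 50 bp, lay the nearest NRF1 summit of 65 NRF1 windows and the nearest ZNF143 summit of 16 ZNF143 windows. No NRF1 or ZNF143 summit lay within 1000 bp of a 5′ end in 1081 members (78.6%). All NRF1 scores were under 5 in 378 NRF1 windows and all ZNF143 scores in 79 ZNF143 windows.

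The letters of the genome and the gene annotation were not used by the rule, so members were tested on them against NRF1 and ZNF143 windows. The NRF1 and ZNF143 consensus are a partial exception, because summits of those factors set the classes apart. A lower share of each in members than in the class with that factor is therefore not independent of the rule, and the part of the rule in it was not tested. The searches within 50 bp of the highest SP1 or YY1 summit are not independent either. The lists that chose the members also set where those searches looked. There were 11 features and 2 comparisons, and the 22 two-sided Fisher's exact tests were adjusted together by the Benjamini-Hochberg method. Windows are not biological replicates, and the intervals cover counting error only. Differences passed an adjusted p of 0.05 in 15 of the 22 tests, and members had the lower share in each of the 15. Consensus sequences were searched within 500 bp of the window's 5′ end, on both strands with 0 mismatches, and copies of different consensus sequences were counted whether or not they overlapped.

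CpG-rich sequence was less frequent in members than in both other classes. CpG-rich meant a GC content of at least 50% and an observed over expected CpG ratio of at least 0.6 within 500 bp of the 5′ end. Of the members, 909 were CpG-rich (66.1%, 63.6 to 68.6), against 87.8% of NRF1 windows (difference -21.7 points, -24.5 to -19.0, Fisher's exact test, adjusted p = 9.27e-61). The share in ZNF143 windows was 79.3% (difference -13.2 points, -17.8 to -8.11, Fisher's exact test, adjusted p = 5.07e-06). The difference from ZNF143 windows lost the call with equal list lengths, at -5.26 points (Fisher's exact test, adjusted p = 0.185), and with a CpG ratio of at least 0.75, at -5.92 points (adjusted p = 0.0653). All 18170 windows stood at 55.7%, and windows with no summit of any of the 4 factors at 15.0%. The median GC content of members, 62.9%, lay between those of NRF1 windows (64.6%) and ZNF143 windows (61.1%), while the median CpG ratio was 0.715, against 0.796 and 0.749.

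The NRF1 consensus, GCGCANGCG, was rare in members, which were chosen for lacking NRF1 summits. It occurred in 70 members (5.09%) and in 25.01% of NRF1 windows (difference -19.9 points, -21.8 to -18.0, Fisher's exact test, adjusted p = 3.87e-65), with 13.7% over all windows and 3.10% in windows with no summit of any factor. ZNF143 windows, which also lack NRF1 summits, held it in 4.09% (difference 1.00 points, -1.75 to 3.06, Fisher's exact test, adjusted p = 0.575). With windows of 250 bp either side for membership, this difference turned to -8.74 points (Fisher's exact test, adjusted p = 2.92e-07). The ZNF143 consensus, CCCAGNATG, occurred in 43 members (3.13%), 3.83% of NRF1 windows (Fisher's exact test, adjusted p = 0.338) and 7.36% of ZNF143 windows (difference -4.23 points, -7.46 to -1.74, adjusted p = 0.00158), with 5.94% over all windows. Windows with all 4 factors held it in 6.54%, so among windows with SP1 and YY1 the share was higher in the classes with ZNF143 summits. Windows with no summit of any factor held it in 7.02%, so a high share was not limited to windows with ZNF143 summits. A copy of either consensus was present in 110 members (8.00%) that had no summit of either factor. Among the windows with a printed sequence, only that of NPM1, which encodes a nucleolar chaperone, held the NRF1 consensus.

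The SP1 consensus occurred in 594 members (43.2%, 40.6 to 45.8), which all held an SP1 summit by the rule, against 30.5% of all windows. Windows with all 4 factors held it in 40.3% and windows with no summit of any factor in 11.7%. NRF1 windows held it in 51.0% (difference -7.80 points, -10.9 to -4.64, Fisher's exact test, adjusted p = 6.37e-06) and ZNF143 windows in 44.4% (difference -1.21 points, -6.95 to 4.44, adjusted p = 0.747). Within 50 bp of the highest SP1 summit it was found in 146 members (10.6%), 16.6% of NRF1 windows (Fisher's exact test, adjusted p = 6.92e-07) and 10.4% of ZNF143 windows (adjusted p = 0.924). Among CpG-rich windows alone, an alternative chosen after seeing the data, the share in the window turned to 2.26 points above NRF1 windows (Fisher's exact test, adjusted p = 0.332). With windows of 250 bp either side the difference from NRF1 windows was -2.85 points (Fisher's exact test, adjusted p = 0.113), and in the top 50% of each list members stood 7.53 points above ZNF143 windows (adjusted p = 0.0214).

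The YY1 consensus occurred in 82 members (5.96%, 4.83 to 7.34), against 7.85% of NRF1 windows (difference -1.89 points, -3.39 to -0.247, Fisher's exact test, adjusted p = 0.0425) and 11.7% of ZNF143 windows (difference -5.75 points, -9.62 to -2.54, adjusted p = 0.000792). The share over all windows was 7.10%, with 15.4% in windows with all 4 factors and 2.12% in windows with no summit of any of them. Within 50 bp of the highest YY1 summit it was found in 47 members (3.42%), 3.55% of NRF1 windows (Fisher's exact test, adjusted p = 0.902) and 5.99% of ZNF143 windows (difference -2.58 points, adjusted p = 0.0495). The difference from NRF1 windows in the window and that from ZNF143 windows at the summit lost the call under several alternatives, with windows of 250 bp at -1.75 points (Fisher's exact test, adjusted p = 0.0766) for the first and a search within 25 bp at -0.925 points (adjusted p = 0.338) for the second. With equal list lengths the differences in the window reversed, to 9.98 points above NRF1 windows (Fisher's exact test, adjusted p = 0.00233) and 3.51 points above ZNF143 windows (adjusted p = 0.408). Neither the SP1 nor the YY1 consensus was present anywhere in 728 members (52.9%), and 5 members had both at their highest summits.

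Where the YY1 summits were strong, members had the higher shares, and only the differences from NRF1 windows passed the threshold. Of the 172 members whose YY1 summit was in the highest 10% of the YY1 list, 36 (20.9%, 15.5 to 27.6) had the YY1 consensus within 50 bp of it. The share was 11.8% of 896 such NRF1 windows (difference 9.10 points, 3.23 to 16.1, Fisher's exact test, adjusted p = 0.00510) and 12.6% of 174 such ZNF143 windows (difference 8.29 points, 0.385 to 16.1, adjusted p = 0.0695). In the whole window the YY1 consensus occurred in 33.1% of these members, 9.70 points above NRF1 windows (Fisher's exact test, adjusted p = 0.0185) and 10.2 points above ZNF143 windows (adjusted p = 0.0695). This restriction was chosen after seeing the data, and it uses the YY1 score, which differed between the classes. With equal list lengths, which left 235 members, the share at the summit was higher in members than in NRF1 windows, by 7.69 points (Fisher's exact test, adjusted p = 0.00233). Neither restriction is independent of the lists that chose the members, so the second is not a separate check of the first. Over all 1375 members the difference from NRF1 windows at the summit was -0.127 points (Fisher's exact test, adjusted p = 0.902). Among members ordered by YY1 score, 41 of the strongest 344 had the consensus at the summit, then 2 of the next 344, 3 of 344 and 1 of the weakest 343. For SP1 ordered by SP1 score the same bins held 57, 51, 26 and 12, a more gradual fall.

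The positions and strands of consensus copies within members are given without a test. Of 86 YY1 copies, 69 (80.2%) lay downstream of the 5′ end, 28 of them in the first 100 bp. On the gene's strand were 56 of the 86 (65.1%, 54.6 to 74.3), 49 of the 69 downstream copies and 7 of the 17 upstream ones. Of 1146 SP1 copies, 365 (31.8%) lay downstream, 449 lay in the 100 bp just upstream, and 576 (50.3%, 47.4 to 53.2) were on the gene's strand. The printed copies of PEPD, of ATL2, an endoplasmic reticulum fusion GTPase gene, and of PFDN4, a subunit gene of the prefoldin chaperone, belong to the first 100 bp and the gene's strand.

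The ETS and cAMP response elements were also less frequent in members. The ETS consensus CCGGAAGT, the site of a large factor family that includes GABPA, occurred in 48 members (3.49%), against 6.68% of NRF1 windows (Fisher's exact test, adjusted p = 3.91e-05) and 8.99% of ZNF143 windows (Fisher's exact test, adjusted p = 8.89e-05). Its share was 6.51% over all windows and 1.26% in windows with no summit of any factor. The cAMP response element TGACGTCA occurred in 32 members (2.33%), 3.89% of NRF1 windows (Fisher's exact test, adjusted p = 0.0137), 4.63% of ZNF143 windows (adjusted p = 0.0485), 3.02% of all windows and 1.17% of windows with no summit of any factor. Both differences lost the call in the top 50% of each list, at -0.843 and -0.779 points (Fisher's exact test, adjusted p = 0.248 and 0.665). A TATAAA box on the gene's strand, starting 40 to 20 bp upstream, occurred in 27 members (1.96%), with 3.23% over all windows. It stood at 1.52% in NRF1 windows (difference 0.444 points, -0.338 to 1.40, Fisher's exact test, adjusted p = 0.380) and 0.817% in ZNF143 windows (difference 1.15 points, -0.527 to 2.18, adjusted p = 0.241). Of the genes named below, FZD8 had such a box.

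Shared promoters were few. Protein-coding 5′ ends on both strands occurred in 51 members (3.71%), against 6.90% of NRF1 windows (difference -3.19 points, -4.48 to -1.78, Fisher's exact test, adjusted p = 6.31e-05), 9.54% of ZNF143 windows (difference -5.83 points, -9.38 to -2.99, adjusted p = 8.45e-05) and 7.07% of all windows. Windows with no summit of any factor stood at 1.08%. Merged windows are longer and leave more room for a summit of any factor, and the part of this in the difference was not tested. A long noncoding RNA started on the opposite strand within 500 bp in 8.73% of members, 14.7% of NRF1 windows, 12.5% of ZNF143 windows and 9.85% of all windows, which is given without a test. COL4A6/COL4A5 and RPL9/LIAS were among the members with 5′ ends on both strands.

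**Figure D4:**
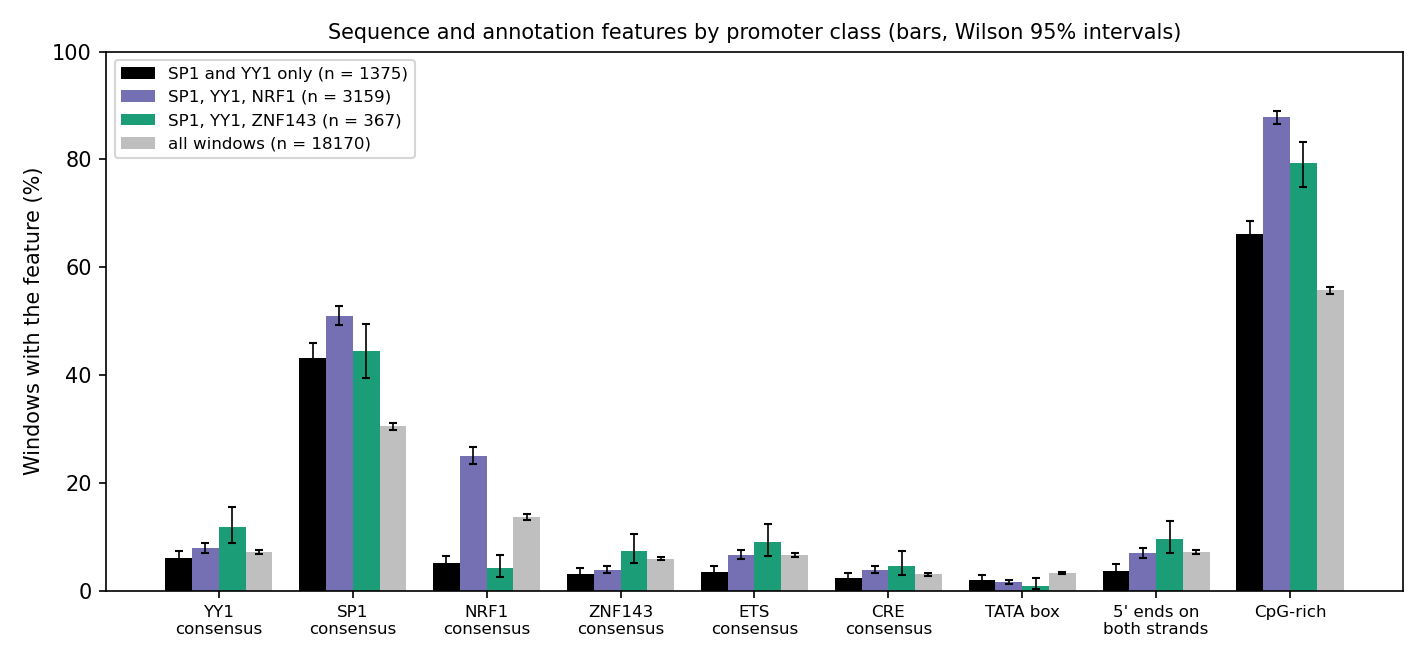
Bars give the percent of windows with each sequence or annotation feature, with Wilson 95% intervals, for members (black), NRF1 windows (purple), ZNF143 windows (green) and all windows (grey). Members stand below NRF1 windows for CpG-rich sequence (66.1% against 87.8%) and for the NRF1 consensus (5.09% against 25.01%), and the TATA box is rare in every class.

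Gene families were counted by symbol, with no test, beside the 7.27% of all genes and the 12.9% of genes with both factors. The family shares are given for the main setting only. Of its 1452 member genes, 69.6% stayed members with windows of 250 bp either side. The share that stayed was 56.3% in the top 50% of each list and 7.58% with equal list lengths. Of 44 collagen genes, which encode extracellular matrix proteins, 12 were in member windows (27.3%, 16.3 to 41.8), or 12 of the 18 collagen genes whose window held SP1 and YY1. The other 6 of those 18 had NRF1 too, and none had ZNF143. COL4A6/COL4A5, the paired genes of basement membrane chains, had an SP1 score of 246 and a YY1 score of 164, 4 bp apart in sequence of 39.6% GC. COL13A1 scored 124 and 33.9, and COL24A1 127 and 29.0.

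HOX genes, which specify position along the body axis, were in member windows in 10 of 39 cases (25.6%, 14.6 to 41.1), or 32.3% of the 31 with both factors. HOXA3 and HOXB3/HOXB6 are described above, and HOXB2 scored 608 for SP1 and 154 for YY1, 5 bp apart in its coding sequence. Of 178 other developmental factor genes, 25 were members (14.0%, 9.70 to 19.9), or 26.6% of the 94 with both factors. Among them EMX2 and EMX1, homeobox genes of the forebrain, had SP1 scores of 1279 and 641 and YY1 scores of 144 and 63.9.

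Axon guidance genes were members in 13 of 62 cases (21.0%, 12.7 to 32.6). SEMA3E, a semaphorin gene, had an SP1 score of 130 and a YY1 score of 50.7, and SEMA3B had 382 and 16.2. Of the SP and KLF genes, relatives of SP1 itself, 6 of 27 were members (22.2%, 10.6 to 40.8). SP3 had 363 for SP1 and 134 for YY1, and KLF3 had 160 and 43.0. WNT, BMP and FGF signalling genes were members in 10 of 82 cases (12.2%, 6.76 to 21.0) and potassium channel genes in 11 of 95 (11.6%, 6.59 to 19.6). RAB GTPase genes were members in 8 of 63 cases (12.7%, 6.58 to 23.1) and TRIM genes in 8 of 75 (10.7%, 5.50 to 19.7). The intervals of the WNT, BMP and FGF, potassium channel, RAB and TRIM lists each included the 7.27% of all genes. Of their genes with both factors, 22.7% of 44, 37.9% of 29, 17.4% of 46 and 28.6% of 28 were members, in that order. Axon guidance genes stood at 29.5% of 44 and SP and KLF genes at 33.3% of 18. Over all genes with both factors the share was 12.9%. FZD8, a WNT receptor gene, had 175 and 136, and KCNJ11, a subunit gene of ATP-sensitive potassium channels, had 682 and 48.2.

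For genes of core cell machinery, as for zinc finger, solute carrier and histone genes, the interval of the share included that of all genes. Cytosolic ribosomal protein genes were members in 4 of 84 cases (4.76%, 1.87 to 11.6), mitochondrial ribosomal protein genes in 4 of 77 (5.19%), complex I genes in 2 of 37 (5.41%) and proteasome genes in 1 of 39 (2.56%). In the 58 cytosolic and 59 mitochondrial ribosomal protein genes with all 4 factors the rule could not be met. Members of these lists, which go by symbol alone, differed widely in YY1: MRPS30 scored 285 for SP1 and 2645 for YY1, NDUFS4 158 and 3629, and RPL3L 121 and 3.12. Zinc finger genes with ZNF symbols stood at 36 of 508 (7.09%), solute carriers at 25 of 337 (7.42%) and histones at 5 of 95 (5.26%). Of the genes with both factors, members made up 5.80% of cytosolic and 5.48% of mitochondrial ribosomal protein genes. Complex I genes stood at 6.06% by this count and proteasome genes at 3.23%. Zinc finger genes were at 9.84%, histones at 8.77% and solute carriers at 16.4%, against 12.9% of all genes with both factors. Olfactory receptor genes, which are silent in most cells, had 0 of 415 (upper limit of the Wilson interval 0.917%), and 414 of them had no summit of any factor.

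Smaller counts were found in 6 further lists. Ubiquitin-specific proteases had 2 of 51 genes in member windows, clustered protocadherins 2 of 53, dual-specificity phosphatases 1 of 24, MAP kinases and their kinases 1 of 43 and keratins 1 of 55. YY1 and its paralogues had 0 of 4. The keratin was KRT8, an epithelial intermediate filament gene, with an SP1 score of 11.7 and a YY1 score of 11.2. The kinase gene was MAP4K4, with 2.65 and 2.99, near the lowest scores in the lists.

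**Figure D5:**
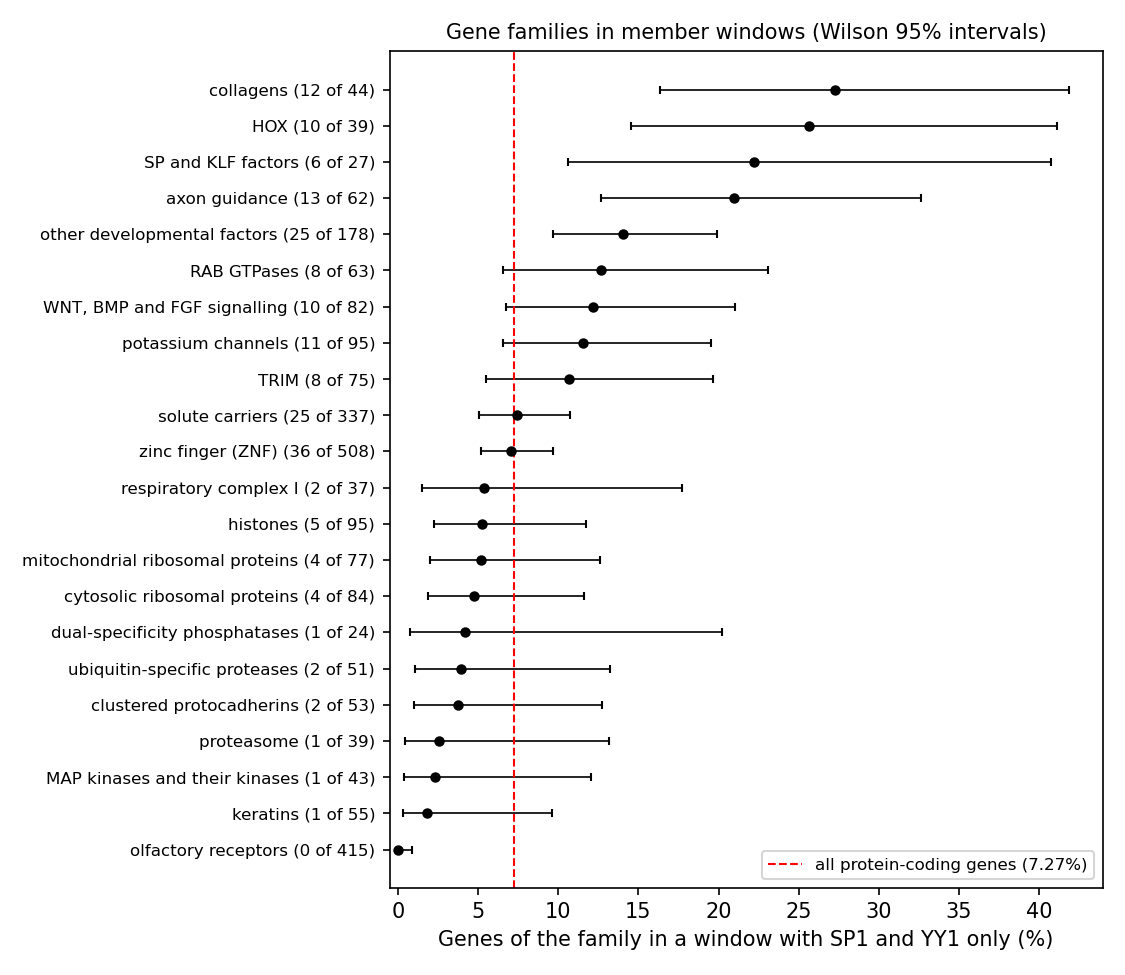
Points give the percent of each plotted family's genes whose window held SP1 and YY1 only, with Wilson 95% intervals and the counts beside each name, and the dashed line marks the 7.27% of all protein-coding genes. Collagens (27.3%), HOX genes (25.6%), SP and KLF factors (22.2%), axon guidance genes (21.0%) and other developmental factors (14.0%) have intervals above the line.

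The median span of member genes from start to end was 44261 bp (quartiles 14176 and 117422), against 42058 bp in NRF1 windows, 38928 bp in ZNF143 windows, 29215 bp in windows with all 4 factors and 27476.5 bp over all genes. These spans are given without a test.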

How the data were processed

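The authors deposited 1 list of ChIP-seq summits per antibody, in hg38, with a −log10 p-value or q-value per summit, from the values and the layout of the deposited files. The submitters' processing notes name cutadapt, Bowtie2, SAMtools 1.16.1, MACS3 and bedtools. The labels tie the SP1 and ZNF143 lists to both treatments, and do not say from which samples those of NRF1 and YY1 were made. Scores rise with depth, and a factor counted as absent may lie below the authors' threshold. The SP1, YY1, NRF1 and ZNF143 lists held 126181, 106578, 39180 and 16165 summits on the chromosomes used.

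Windows, consensus copies and base composition were computed with Python 3.11.15, pandas 2.3.3 and pysam 0.24.0, and two-sided Fisher's exact tests with scipy 1.17.1. Difference intervals are Newcombe intervals. The search and the test were checked on simulated data. GENCODE gives each gene's outermost 5′ end, which may be an alternative promoter.

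Members and gene lists were chosen with earlier results of these data known. 3 lists were renamed and 3 symbol patterns corrected after their matches were seen. Named genes were the first 10 by mean place, the 3 highest for SP1 and for YY1, those with printed sequences (chromosome 8 left out), up to 4 per gene list in the same order, and the 3 lowest. 1 gene list and 1 named gene are not reported here.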

Additional observations from a re-analysis of the deposited data

How the results depend on the processing

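No paired analysis was possible because each list pools samples and holds no value per sample. Of 204 alternative values of the 22 differences, 155 kept their direction and side of the threshold, 24 lost and 2 gained the call, and 23 reversed. Values are in points, members minus NRF1 windows unless ZNF143 windows are named, and the cause of each change was not tested. With windows of 250 bp either side, the YY1 consensus stood at -1.75, SP1 at -2.85 (3.30 against ZNF143 windows), ZNF143 at 0.184 and the cAMP response element at -1.18. Against ZNF143 windows NRF1 then stood at -8.74 and SP1 at its summit at 3.45. With 1000 bp, YY1 and SP1 at their summits stood at -2.60 and -0.229 against ZNF143 windows. In the top 50% of each list, YY1 was -0.585, YY1 at the summit 1.00, the cAMP response element -0.843 (-0.779 against ZNF143 windows) and the TATA box -0.238 (-0.282). SP1 was 7.53 in the window and 4.91 at the summit against ZNF143 windows. Equal list lengths left 235 members, 110 of whose 260 genes were among the 1452. YY1 then stood at 9.98 (3.51 against ZNF143 windows), YY1 at the summit at 7.69 (2.02), SP1 at -7.37 (6.30), SP1 at the summit at -4.03, ETS at -3.95, the cAMP response element at 0.134 (0.571), both strands at -3.24, and CpG-rich sequence at -5.26 against ZNF143 windows. YY1 at the summit against ZNF143 windows was -2.38 without 5 members in stretches that the peak numbering skips, -1.34 with a single 5′ end, -2.94 with no absent factor within 1000 bp, and -0.925 within 25 bp of the summit. With a single 5′ end, YY1 in the window was -1.87. Searched within 250 bp, SP1 was 1.52 and the cAMP response element -1.16 against ZNF143 windows. SP1 within 100 bp of its summit was -0.383 and CpG-rich sequence at a ratio of 0.75 was -5.92, both against ZNF143 windows.

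Both remaining alternatives were chosen after seeing the data. In CpG-rich windows only, YY1 was -2.21, YY1 at the summit -2.09 against ZNF143 windows, SP1 2.26 (7.51) and the cAMP response element -1.33. With the factor's own summit in the highest 10% of its list, YY1 was 9.70 (10.2 against ZNF143 windows), YY1 at the summit 9.10 (8.29), SP1 -8.48 and SP1 at the summit -6.39. The NRF1 consensus and CpG-rich sequence against NRF1 windows, and ETS, the ZNF143 consensus and both strands against ZNF143 windows, kept the call wherever they were recomputed. For the NRF1 and ZNF143 consensus the direction is not independent of the rule, which used the summits of those factors. The part of the rule in it was not tested. The depth behind each list is unknown and limits what absence of a summit shows.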
